A study of Mus musculus with 6 samples.

Results

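The genes described here make hyaluronan, receive it at the cell surface or bind it in the matrix: the hyaluronan synthases *Has1*, *Has2* and *Has3*, the receptor *Cd44*, and the binding partners *Tnfaip6*, *Vcan* and *Hapln3*. They were the rows of the deposited mouse gene table that carry these 7 symbols, 7 of 24532 genes in all, and all 7 had reads in every library. RNA was sequenced from primary articular chondrocytes, the cells of joint cartilage, cultured from the knee joint surfaces of 5-day-old ICR mice. There were 2 groups of 3 libraries. One group received negative control siRNA and the other received Sephs1 siRNA, which targets the mRNA of selenophosphate synthetase 1. Each siRNA was used at 50 nM for 12 h, followed by 48 h in fresh medium, and the transfection was carried out on 2 occasions. Cultures of both groups were kept at low oxygen. By the study's methods, cells were exposed to hyaluronidase, an enzyme that cuts hyaluronan, for 4 h before siRNA was added, in both groups alike, and no culture without the enzyme is among the libraries. Only mRNA was measured, and neither hyaluronan nor its receptor at the cell surface was assayed.

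Hyaluronan is a long unbranched sugar chain that HAS enzymes build at the plasma membrane from UDP-glucuronic acid and UDP-N-acetylglucosamine and push out of the cell as it grows. In cartilage it is the backbone to which aggrecan and versican attach, each bond being locked by a link protein of the HAPLN family, and CD44 anchors the resulting coat to the chondrocyte. TNFAIP6, also known as TSG-6, moves protein heavy chains from inter-alpha-trypsin inhibitor onto hyaluronan.

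By the RefSeq annotation of GRCm38.p6, the assembly also called mm10, the synthase genes lie apart from one another: *Has1* at chr17:17833691-17855589, *Has2* at chr15:56665627-56694546 and *Has3* at chr8:106870242-106882902. *Cd44* lies at chr2:102811141-102901669 and *Tnfaip6* on the same chromosome at chr2:52038113-52056681. *Vcan* lies at chr13:89655309-89743027 and *Hapln3* at chr7:79117027-79133173. RefSeq promoter sequences were matched for 5 of the 7 genes and not for *Has2* and *Has3*. The 250 bases before the start site that RefSeq's promoter table uses are shown for *Has1*, *Cd44*, *Tnfaip6* and *Vcan*, because their mRNA levels moved together across libraries, as described further on. That start site lies inside the gene span given above for *Has1*, *Cd44*, *Vcan* and *Hapln3*, so distances are counted from it and not from the end of the span. They are written 5′ to 3′ on the strand of the gene, in lower case, with matches to the searched motifs in capitals.
Has1 promoter, chr17:17855189-17855438, minus strand: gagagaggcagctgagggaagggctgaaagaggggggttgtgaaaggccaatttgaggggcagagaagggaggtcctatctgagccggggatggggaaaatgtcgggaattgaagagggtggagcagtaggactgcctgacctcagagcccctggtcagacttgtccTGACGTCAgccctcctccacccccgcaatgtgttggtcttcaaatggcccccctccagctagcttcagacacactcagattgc
Tnfaip6 promoter, chr2:52037863-52038112, plus strand: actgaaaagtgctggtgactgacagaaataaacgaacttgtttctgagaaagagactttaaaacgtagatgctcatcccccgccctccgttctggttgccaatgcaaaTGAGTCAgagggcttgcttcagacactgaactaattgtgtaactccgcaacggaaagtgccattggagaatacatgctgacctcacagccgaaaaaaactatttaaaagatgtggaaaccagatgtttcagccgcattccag
Cd44 promoter, chr2:102901666-102901915, minus strand: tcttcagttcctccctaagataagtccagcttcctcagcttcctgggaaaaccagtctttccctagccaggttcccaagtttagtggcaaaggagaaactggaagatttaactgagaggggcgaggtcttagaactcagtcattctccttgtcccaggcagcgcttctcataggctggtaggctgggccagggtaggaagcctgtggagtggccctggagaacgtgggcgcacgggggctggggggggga
Vcan promoter, chr13:89742513-89742762, minus strand: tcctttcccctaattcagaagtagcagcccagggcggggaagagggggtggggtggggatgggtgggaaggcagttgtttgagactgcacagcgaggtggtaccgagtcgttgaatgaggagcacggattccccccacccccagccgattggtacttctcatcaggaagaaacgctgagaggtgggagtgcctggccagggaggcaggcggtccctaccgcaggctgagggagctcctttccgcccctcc
The capitals in *Has1* are a cAMP response element, TGACGTCA, which begins 83 bases before the start site and is found in 1.55% of 32851 RefSeq mouse promoters of this length, both strands searched. The capitals in *Tnfaip6* are an AP-1 site, TGAGTCA, a match to TGANTCA, which begins 142 bases before the start site and is found in 6.75% of promoters. No match to these motifs, to an NF-kB motif (1.21% of promoters), to the SMAD palindrome GTCTAGAC (0.167%) or to the TATA box TATAAA (12.4%) was found in the *Cd44* and *Vcan* windows. The *Hapln3* promoter held TATAAA 239 bases before the start site of that table. The motifs were picked after the sequences were in hand. A match is a description of the letters only, and it was not related to binding of any factor.

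The 6 libraries held 58214060 to 80887889 reads, and 14223 genes had a read in every library and were tested. Chondrocyte markers dominated: the summed level of the 10 markers in the table, led by *Col2a1*, the type II collagen gene, was 90100 to 120000 CPM, the read count scaled to library size with TMM factors, in the control group and 82860 to 103600 in the Sephs1 group. Fibroblast markers summed to 14320 to 18470 CPM and 14190 to 16300 CPM. Macrophage and leukocyte markers summed to 9.47 to 12.14 CPM and 11.21 to 13.91 CPM, with *Itgam*, *Tyrobp*, *Aif1* and *Cd3e* at 0 reads in every library. Endothelial markers summed to at most 0.586 CPM, with *Cdh5*, *Emcn* and *Tie1* at 0, and osteoblast markers to 37.79 to 78.32 CPM. *Sephs1* itself was at 50.7, 44.7 and 44.7 CPM in control replicates 1, 2 and 3 and at 36.1, 24.9 and 21.5 CPM in Sephs1 replicates 1, 2 and 3. It was lower in every Sephs1 library than in every control library, by a log2 fold change of -0.76 (SE 0.19). This missed the adjusted threshold of 0.05 in edgeR's quasi-likelihood test (adjusted p = 0.392). A fit that took the replicate numbers as blocks passed it (-0.79, adjusted p = 0.04), and so did DESeq2 without blocks (-0.77, adjusted p = 0.0181).

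Per transcript length, the receptor was the most abundant of these mRNAs and *Has3* the least. In FPKM, fragments scaled to transcript length and to library size, *Cd44* was at 37.1 ± 6.04 in control and 40.9 ± 3.99 in Sephs1 libraries (SD, n = 3 in each group here and below). *Vcan* followed at 12.0 ± 9.17 and 17.4 ± 8.15 FPKM, then *Has2* at 8.44 ± 1.32 and 8.50 ± 0.359 FPKM. The ranges of *Vcan* and *Has2* overlapped in the control group, where *Vcan* was the higher of the pair in only 1 of 3 libraries, and did not overlap in the Sephs1 group, where it was higher in 3 of 3. *Tnfaip6* was at 4.41 ± 1.29 and 4.69 ± 0.565 FPKM, *Hapln3* at 2.18 ± 0.327 and 1.67 ± 0.382, *Has1* at 0.579 ± 0.437 and 0.608 ± 0.382, and *Has3* at 0.0390 ± 0.00689 and 0.0472 ± 0.0112. All other neighbours in this order were separated without overlap in both groups.

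**Figure D1:**
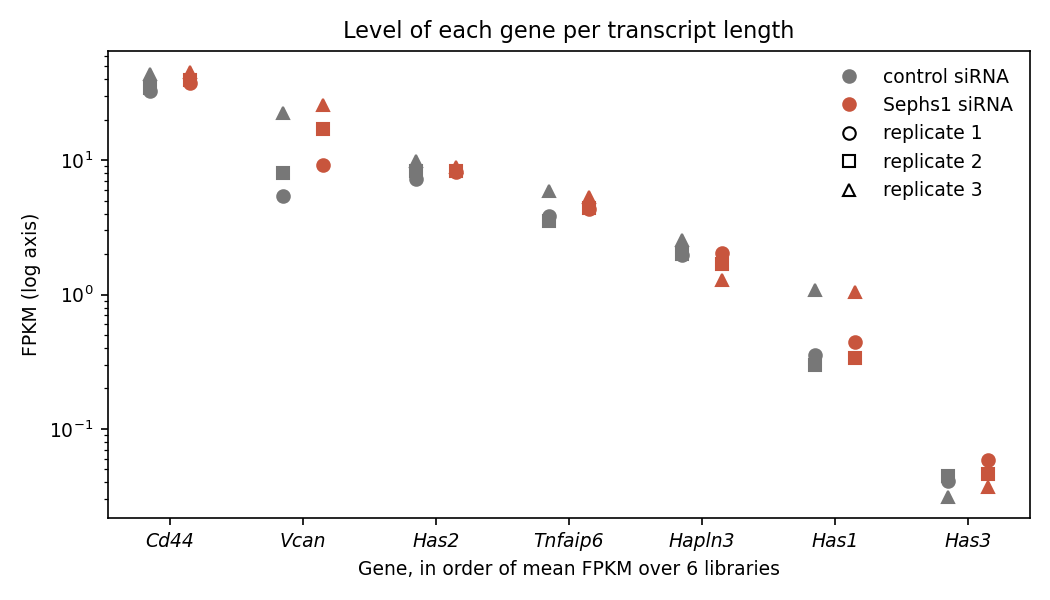
FPKM of the 7 genes on a log axis in the 3 control siRNA (grey) and 3 Sephs1 siRNA (red) libraries, with a marker shape for each replicate number. *Cd44* is highest in all 6 libraries, between 33.0 and 45.4 FPKM, *Has3* lowest, below 0.06 FPKM, and the points of *Vcan* spread most among the abundant genes, from 5.41 to 25.6 FPKM.

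Of the enzymes that make hyaluronan, *Has2* gave nearly all the mRNA. HAS2 is the main synthase of cartilage and of the embryo, and it makes very long chains. Its share of the summed FPKM of the 3 synthases was 94.8%, 96.0% and 89.8% in control replicates 1, 2 and 3, a mean of 93.5 ± 3.28%. The share was 94.2%, 95.6% and 89.2% in the Sephs1 libraries, a mean of 93.0 ± 3.41%, so the group means differed by less than the SD of either group. In both groups replicate 3 had the lowest *Has2* share and the highest *Has1* share. *Has1* made up 3.47% to 10.5% of the sum over the 6 libraries and *Has3* 0.286% to 0.677%.

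None of the 3 synthases passed the test between siRNA groups. *Has2* was at 32.3, 36.9 and 42.1 CPM in control replicates 1, 2 and 3 and at 35.2, 35.8 and 36.7 CPM in Sephs1 replicates 1, 2 and 3. The Sephs1 libraries all lay inside the control range. The difference on the log2 scale was -0.05 (SE 0.10, 95% interval -0.29 to 0.20, adjusted p = 0.909 in edgeR), an interval that is the narrowest among the 7 genes. The sign of this small difference turned with library totals alone as the scaling, at 0.01. *Has2* overlaps the antisense gene *Has2os* over 182 exon bases on the opposite strand. *Has2os* had only 33 to 50 reads in a library against 1806 to 3160 for *Has2*, and it did not pass the test (-0.32, SE 0.24, adjusted p = 0.747). Whether reads were counted by strand is not given in the sources used here.

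*Has1*, the synthase that needs the highest concentration of sugar precursors, differed more between replicate numbers than between siRNA groups. It was at 0.788, 0.663 and 2.29 CPM in the control libraries and at 0.936, 0.712 and 2.14 CPM in the Sephs1 libraries, again in the order of replicates 1, 2 and 3. In each group replicate 3 was the highest, and the groups overlapped. The log2 fold change was 0.01 (SE 0.61, 95% interval -1.43 to 1.45, adjusted p = 0.998), and an interval this wide holds large differences of either sign. In the blocked fit the interval narrowed to -0.43 to 0.56 around 0.07 (adjusted p = 0.87). *Has3*, which makes shorter chains, had 14 to 24 reads in a library, or 0.2 to 0.357 CPM. At that depth its log2 fold change of 0.18 (SE 0.30, 95% interval -0.53 to 0.90, adjusted p = 0.878) rests on few reads.

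*Cd44*, whose product binds hyaluronan through its outer domain and links to the actin skeleton inside the cell, was at 158, 164 and 201 CPM in control replicates 1, 2 and 3. The Sephs1 libraries had 168, 182 and 196 CPM, all within the control range. Its log2 fold change was 0.06 (SE 0.11, 95% interval -0.20 to 0.33, adjusted p = 0.885). The gene had 8838 to 15079 reads in a library. Of its 6 annotated transcripts the table gives only the sum, so a shift between CD44 variants could not be read from the gene counts.

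The binding partners included the most variable gene, *Vcan*, and the one gene whose groups did not overlap, *Hapln3*. *Tnfaip6*, an inflammation-induced secreted protein, was at 6.48, 5.91 and 9.52 CPM in control replicates 1, 2 and 3 and at 7.0, 7.12 and 8.32 CPM in Sephs1 replicates 1, 2 and 3. All Sephs1 values fell within the control range. Its log2 fold change was 0.03 (SE 0.20, 95% interval -0.44 to 0.51, adjusted p = 0.972).

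*Vcan* encodes versican, a large proteoglycan of embryonic and loose tissues that shares its hyaluronan-binding end with aggrecan. It was at 49.0, 86.7 and 219 CPM in control replicates 1, 2 and 3 and at 90.6, 170 and 242 CPM in Sephs1 replicates 1, 2 and 3. Each Sephs1 library was above the control library of its number, and the groups nevertheless overlapped widely, with control replicate 3 above both Sephs1 replicates 1 and 2. The highest library was 4.94-fold above the lowest, and within the control group alone the ratio was 4.48. Among the 10051 genes of at least 5 CPM, 0.876% had a ratio as large as that of *Vcan* over the 6 libraries, and of all genes tested 4.23% had. The log2 fold change between groups was 0.50 (SE 0.58, 95% interval -0.87 to 1.87, adjusted p = 0.825).

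In the fit blocked by replicate number, which compares each Sephs1 library with the control of the same number, the *Vcan* difference became 0.67 (SE 0.17, 95% interval 0.26 to 1.08). This had an unadjusted p = 0.00784 in edgeR and an adjusted p = 0.0947. The unadjusted value was below the number the study used as its cutoff, and the adjusted one did not pass. The study applied that cutoff to a DESeq2 test, and its methods name no replicate block. In DESeq2 the unadjusted p of *Vcan* was 0.441 without the block and 0.0102 with it. The log2 ratios of the 3 pairs were 0.89, 0.97 and 0.14. The difference was large in pairs 1 and 2 and small in pair 3, where both libraries were high. When both replicate 3 libraries were left out of the blocked fit, a choice made after seeing the data, the difference was 0.93 with an adjusted p = 0.00338. Without control replicate 3 alone and with no block, it was 1.304 (unadjusted p = 0.0289, adjusted p = 0.402), and without control replicate 1 alone it was 0.12 (adjusted p = 0.999).

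The *Vcan* values also carried a transcript-level spread. The gene has 5 annotated transcripts of 2273 to 12427 bases, since alternative exons for the sugar-bearing middle of the protein can be left out. The length that its reads and FPKM jointly imply was 8681, 10488 and 9850 bases in control replicates 1, 2 and 3 and 9841, 9959 and 9942 bases in the Sephs1 libraries, a range of 18.4% of the mean. Control replicate 1, the library with the least *Vcan*, had the shortest implied length. The genes with 1 annotated transcript, *Has1*, *Has2*, *Tnfaip6* and *Hapln3*, varied by at most 1.12%. The implied length of *Hapln3*, 1456 to 1466 bases, was below the 3358 bases of its transcript in the GENCODE annotation, so its FPKM rests on the shorter length. The implied length of *Cd44* varied by 3.13% and that of *Has3* by 5.73%.

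*Hapln3*, encoding a link protein that bridges hyaluronan and proteoglycan, was at 3.01, 3.02 and 3.70 CPM in control replicates 1, 2 and 3 and at 2.96, 2.46 and 1.79 CPM in Sephs1 replicates 1, 2 and 3. Every Sephs1 library was below every control library, though the nearest were only 2.96 and 3.01 CPM apart. It was the 1 gene of the 7 without overlap, against 7.09% of all genes tested that lay apart in this direction and 14.9% in either. Its log2 fold change was -0.43 (SE 0.22, 95% interval -0.97 to 0.10, unadjusted p = 0.094, adjusted p = 0.652). The ratios of the pairs were -0.02, -0.30 and -1.05 on the log2 scale, so pair 1 showed nearly no difference and pair 3 most of it. Without both replicate 3 libraries the blocked difference was -0.16 (adjusted p = 0.654) against -0.45 with all 6 libraries (adjusted p = 0.287). The gene had 117 to 278 reads in a library.

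**Figure D2:**
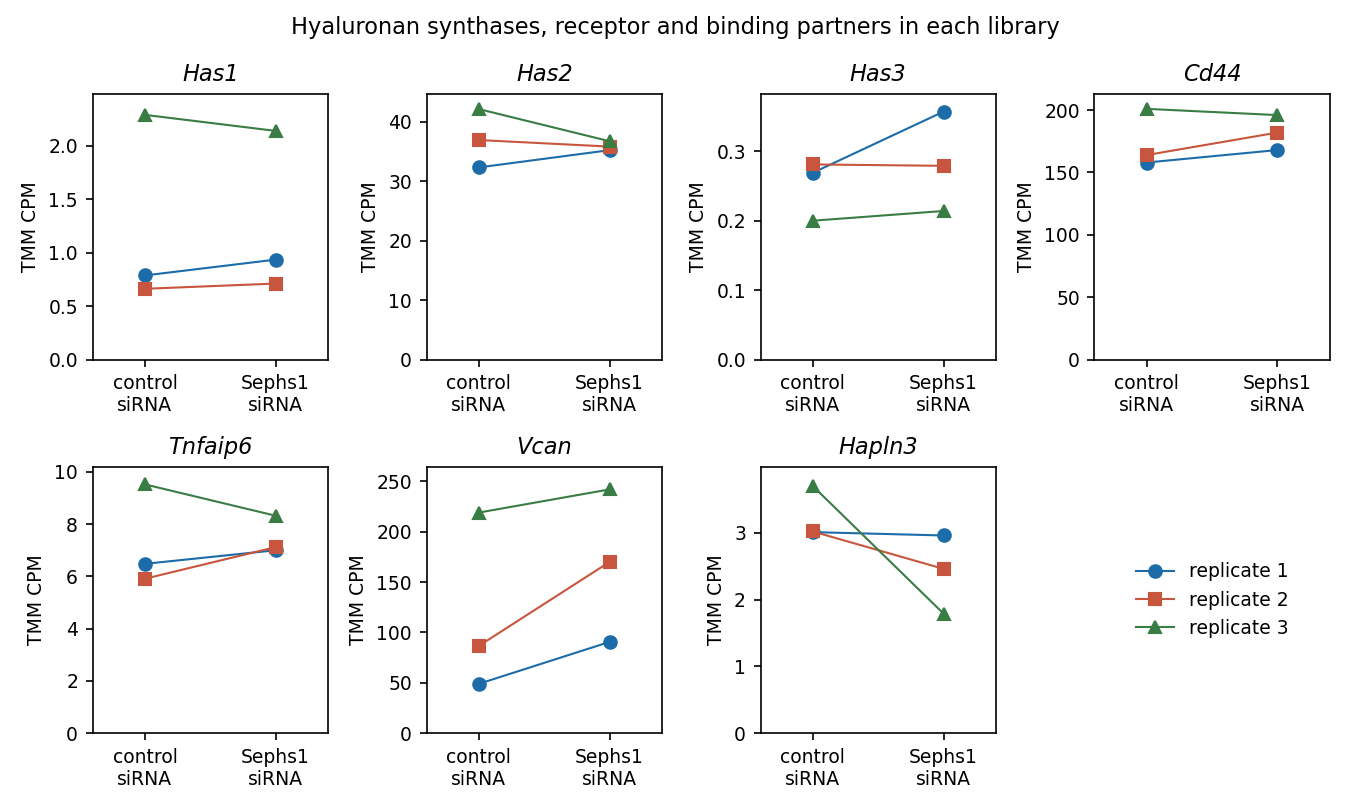
TMM-scaled CPM of each gene in the control siRNA and Sephs1 siRNA libraries, on axes that start at 0, with lines joining libraries of the same replicate number. Each *Vcan* line ends higher at Sephs1 siRNA, going from 49.0 to 90.6, 86.7 to 170 and 219 to 242 CPM, each *Hapln3* line ends lower, and the other genes have lines of both directions.

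Over the 7 genes, 0 were called at an adjusted p under 0.05 and 0 at an unadjusted p under 0.05, against 0.0141% and 8.62% of all 14223 genes tested. With the replicate block, 0 were called at an adjusted p under 0.05 and 1, *Vcan*, at an unadjusted one and in the higher direction, against 1.65% and 24.3% of all genes in either direction and 13.1% higher. DESeq2 called 0 of the 7 at an adjusted p under 0.05, against 1.48% of genes. The median log2 fold change of the 7 was 0.03, and that of all genes tested was 0.01. The intervals differed widely in what they allow: those of *Has2* and *Cd44* held differences no larger than 0.33 on the log2 scale, while those of *Has1* and *Vcan* reached 1.45 and 1.87.

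**Figure D3:**
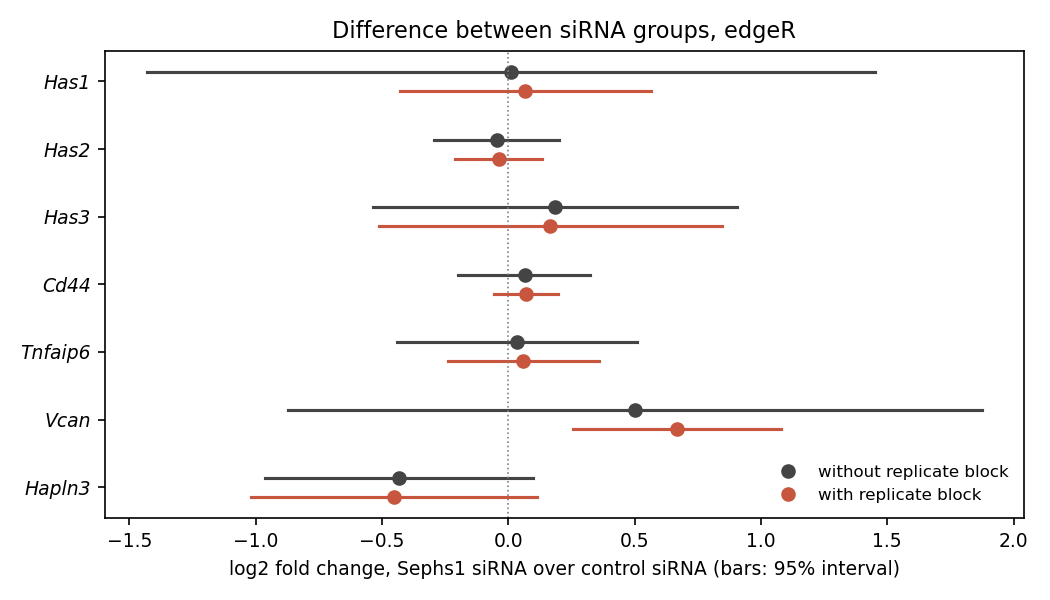
Log2 fold change of each gene, Sephs1 siRNA over control siRNA, in edgeR fits without (grey) and with (red) the replicate block, with bars for 95% intervals. All grey bars cross 0, and of the red bars that of *Vcan* lies above 0, from 0.26 to 1.08, while the other 6 cross it.

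A second pattern ran across the replicate numbers and was shared by both siRNA groups. *Has1*, *Has2*, *Cd44*, *Tnfaip6* and *Vcan* were each highest in replicate 3 of the control group and in replicate 3 of the Sephs1 group, 5 of 7 genes, against 22.1% of all genes tested. *Has3* and *Hapln3* did not share it. The excess over the lower replicates was large for *Has1* and *Vcan* and slight for *Has2*, which spanned only 1.3-fold over all 6 libraries. This description carries no test, since the replicate numbers are not a treatment.

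Markers of other cell types differed between the same libraries. Of the 10 fibroblast markers, 8 were highest in replicate 3 of both groups, and *Col1a1* and *Dcn* were not. *Col1a1*, the most abundant of the list at 1600 FPKM, was at 11100, 9330 and 11000 CPM in control replicates 1, 2 and 3. It was at 9200, 8610 and 8900 CPM in Sephs1 replicates 1, 2 and 3. *Dcn* was lowest in replicate 3 of both groups, at 1560, 1520 and 1320 CPM in control and 1890, 1820 and 1490 CPM in Sephs1 libraries. *Prg4*, the lubricin gene of surface cartilage and synovial lining, was at 317, 334 and 725 CPM in the control libraries and 367, 366 and 499 CPM in the Sephs1 libraries, in the order of replicates 1, 2 and 3. *Pdgfra*, a growth factor receptor of mesenchymal cells, was at 89.1, 78.6 and 175 CPM and at 119, 90.5 and 204 CPM. *Postn*, a matrix protein of fibrous tissue, showed the same order of replicate 3 over the rest, with 78.0 and 60.2 CPM there and no more than 38.5 CPM elsewhere. All 10 chondrocyte markers in the table were lowest in replicate 3 of both groups. The share of all genes tested that were lowest there is not given here. *Acan*, which encodes aggrecan, was at 11600, 11500 and 6800 CPM in control and at 9280, 8860 and 6820 CPM in Sephs1 libraries. Of the macrophage and endothelial markers with a read in every library, 5 and 2 genes, 0 were highest in replicate 3 of both groups. The part of these marker differences in the levels of *Vcan*, *Has1* and the others was not tested, and in bulk RNA fewer cells of a type cannot be told apart from less RNA per cell.

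**Figure D4:**
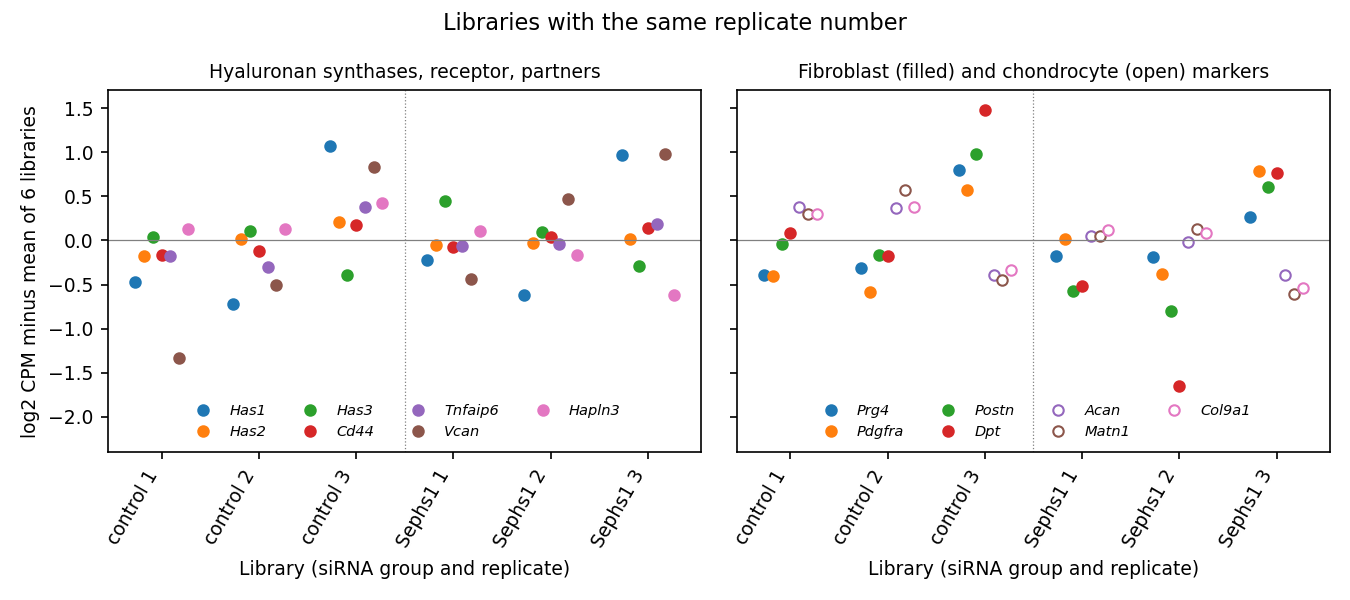
Log2 CPM of each gene minus its mean over the 6 libraries, for the 7 hyaluronan genes (left) and for 4 fibroblast markers (filled) and 3 chondrocyte markers (open, right), by library. The 4 fibroblast markers are among the 8 that were highest in replicate 3 of both groups. In replicate 3 of both groups *Has1*, *Vcan* and the 4 fibroblast markers lie above 0 and the 3 chondrocyte markers below it.

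For each of the 7 genes the 2 genes of at least 5 CPM with the most similar log2 CPM over the 6 libraries were listed by Pearson's r, as a description without a test. The 6 points share siRNA group and replicate number, and about 10050 genes were compared, so high values arise readily. *Vcan* was most like *Zeb2* (0.993), a transcription factor gene of mesenchymal cells, and *Zfp367* (0.989). *Cd44* was most like *Sertad1* (0.992) and *Chpf* (0.991), whose product extends chondroitin chains. *Has1* was most like *Pxdn* (0.999), encoding a matrix peroxidase, and *Nab2* (0.997). *Has2* was most like *Aldh2* (0.991), the mitochondrial aldehyde dehydrogenase, and *Slco3a1* (0.977). *Tnfaip6* was most like *Txndc5* (0.994) and 3110082I17Rik (0.991), *Has3* like *Capn6* (0.986) and *Klhl42* (0.985), and *Hapln3* like *Csrp2bp* (0.985) and *Ubtf* (0.98).

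The rest of the pathway was read from 7 lists by role with 55 genes in the table, of which 43 had a read in every library. At an adjusted p under 0.05 edgeR called 0 of the 43 without the block. At an unadjusted p under 0.05 it called 6 higher and 3 lower, or 9 of 43, against 4.98% and 3.63% of all genes. The blocked fit called 3 of them higher and 2 lower after adjustment, against 0.83% and 0.816% of all genes. Their median log2 fold change was 0.04 without the block, beside 0.01 for all genes tested. Without both replicate 1 libraries, a choice made after seeing the data, the blocked fit called 0 of the 43 after adjustment and 12 at an unadjusted p under 0.05. Of all 14223 genes tested, that fit called 23 and 2068. Without both libraries of replicate 2 or 3, the blocked fit called 3 and 9 of the 43 after adjustment, and 87 and 1195 of all genes.

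In precursor synthesis, *Ugdh*, which makes UDP-glucuronic acid, had the highest level of its list at 163 FPKM over all libraries, and it was at 395 to 416 CPM in control and 398 to 407 CPM in Sephs1 libraries. Its log2 fold change was -0.00 (SE 0.06, adjusted p = 1.000). *Gnpnat1*, an acetyltransferase on the way to UDP-N-acetylglucosamine, was at 62.8, 65.3 and 55.2 CPM in control and 49.4, 51.5 and 45.0 CPM in Sephs1 libraries. The groups did not overlap, and the log2 fold change of -0.33 (SE 0.09) had an adjusted p = 0.413 without the block and 0.0387 with it. In the blocked edgeR fit without both libraries of replicate 1, 2 and 3 the adjusted p was 0.181, 0.119 and 0.0219. *Gnpnat1* was the 1 gene of 7 in the list called with the block, against 0.816% of all genes called lower and 1.65% in either direction. The list's median was -0.06, with 6 of 7 genes below 0, among them *Ugdh* at -0.00. Of all 14223 genes tested 6823 were below 0, with a median of 0.01.

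In degradation, *Hexa*, a lysosomal hexosaminidase subunit that takes sugars off the chain end, was at 218, 216 and 212 CPM in control and 256, 253 and 250 CPM in Sephs1 libraries. The groups were apart, with little spread within either. Its log2 fold change of 0.23 (SE 0.05) had an adjusted p = 0.392 without the block, 0.0495 with it, 0.0512 with it and RLE factors, and 0.0315 in DESeq2. In the blocked edgeR fit without both libraries of replicate 1, 2 and 3 the adjusted p was 0.251, 0.163 and 0.0326. The enzymes that cut within the chain did not pass. *Hyal2* was at 12.8, 12.9 and 14.9 CPM in control and 12.2, 10.6 and 12.6 CPM in Sephs1 libraries (-0.20, SE 0.11, adjusted p = 0.678). Its groups did not overlap, against 7.09% of all genes tested that lay apart in this direction. In the blocked edgeR fit *Hyal2* had an unadjusted p = 0.0472 and an adjusted p = 0.2. *Hyal1*, *Hyal3*, *Cemip* and *Tmem2*, the table's symbol for *Cemip2*, had log2 fold changes from -0.27 to 0.11, that of *Hyal3* on 26 to 39 reads in a library. Of the remaining receptors, *Layn*, encoding layilin, was the most abundant at 12.5 FPKM (-0.04, SE 0.09, adjusted p = 0.908). *Hmmr*, a receptor also made in dividing cells, ranged from 9.45 to 36.1 CPM in control and from 26.9 to 53.9 CPM in Sephs1 libraries, with overlap (0.86, SE 0.47, adjusted p = 0.672). It was higher in 3 of 3 pairs, a count given here without the share over all genes. The blocked difference was 0.99 (unadjusted p = 0.00633, adjusted p = 0.0891). Of the 7 genes in this list 0 were called with the block after adjustment and 1, *Hmmr*, at an unadjusted p under 0.05, against 1.65% and 24.3% of all genes.

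Among proteoglycans, link proteins and other binding proteins, *Acan* was the most abundant at 1220 FPKM, and its log2 fold change was -0.26 (SE 0.24, adjusted p = 0.792). *Ptx3*, a pentraxin that holds heavy chains in hyaluronan matrices, was at 250, 228 and 181 CPM in control and 181, 163 and 130 CPM in Sephs1 libraries. It was lower in each pair by a similar ratio. The log2 fold change of -0.47 (SE 0.16) had an adjusted p = 0.493 without the block and 0.0183 with it. In the blocked edgeR fit without both libraries of replicate 1, 2 and 3 the adjusted p was 0.0828, 0.0321 and 0.00594. *Hapln1*, the main link protein of cartilage, was at 313 FPKM against 1.93 for *Hapln3*, and it had a log2 fold change of 0.15 (SE 0.26, adjusted p = 0.888). *Itih2*, encoding a heavy chain that TNFAIP6 can transfer, was at 37.9, 36.4 and 38.6 CPM in control and 44.5, 51.3 and 46.1 CPM in Sephs1 libraries. The groups were apart (0.33, SE 0.08, adjusted p = 0.392 without and 0.0743 with the block). DESeq2 gave *Itih2* an adjusted p = 0.0568 without the block and 0.00714 with it. In the blocked edgeR fit it was 0.197, 0.211 and 0.043 without both libraries of replicate 1, 2 and 3. *Itih2* and *Itih5* were the 2 tested genes of a separate list, that of inter-alpha-trypsin inhibitor chains. *Itih5* was at 13.1, 18.1 and 24.0 CPM in control and 16.2, 21.4 and 25.0 CPM in Sephs1 libraries, with overlap (0.18, SE 0.25, adjusted p = 0.858 without and 0.176 with the block). *Itih1*, *Itih3*, *Itih4* and *Ambp* did not have a read in every library and were not tested.

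Among the linkers and sheddases of CD44, 3 of 7 genes had an unadjusted p under 0.05 without the block, against 8.62% of all genes. None of the 3 passed after adjustment in edgeR with all 6 libraries. *Msn*, the ERM linker moesin, was the most abundant at 123 FPKM and had a log2 fold change of -0.18 (SE 0.06, unadjusted p = 0.0184, adjusted p = 0.489). *Ezr*, the ERM linker ezrin, had 0.25 (SE 0.10, unadjusted p = 0.0472, adjusted p = 0.573). *Adam10*, a protease that sheds CD44, had 0.22 (SE 0.09, unadjusted p = 0.0465, adjusted p = 0.572). The adjusted p of these 3 with the block was 0.0655, 0.106 and 0.101. DESeq2 with the block called *Msn* (adjusted p = 0.0195) and *Ezr* (adjusted p = 0.0478), and the blocked edgeR fit without both replicate 3 libraries called *Msn* (adjusted p = 0.0224).

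The versican-cleaving proteases held 2 of the 5 genes called with the block. Of the 5 tested genes in their list 4 had values above 0, and the list's median was 0.44 on the log2 scale. Of all 14223 genes tested 7400 had values above 0, with a median of 0.01, and the block called 1.65%. *Adamts1* was at 146, 189 and 262 CPM in control and at 202, 248 and 361 CPM in Sephs1 libraries. *Adamts5*, also the main aggrecan-cleaving enzyme of mouse cartilage, was at 33.2, 49.2 and 88.2 CPM in control and at 49.8, 72.8 and 146 CPM in Sephs1 libraries. Both were higher in 3 of 3 pairs, both were highest in replicate 3 of each group, as *Vcan* was, and both overlapped between groups. The share of all genes tested that were higher in 3 of 3 pairs is not given here. Without the block the log2 fold changes were 0.44 (SE 0.27, adjusted p = 0.702) for *Adamts1* and 0.65 (SE 0.48, adjusted p = 0.747) for *Adamts5*. With it they were 0.44 (SE 0.04, adjusted p = 0.0213) and 0.63 (SE 0.05, adjusted p = 0.0208). Without both replicate 1 libraries the blocked adjusted p was 0.103 for *Adamts1* and 0.0871 for *Adamts5*. It was 0.0311 and 0.0179 without both replicate 2 libraries, and 0.00932 and 0.00534 without both replicate 3 libraries. *Adamts15* had a log2 fold change of 1.23 (SE 0.48, unadjusted p = 0.0387, adjusted p = 0.554) on 8 to 32 reads in a library.

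**Figure D5:**
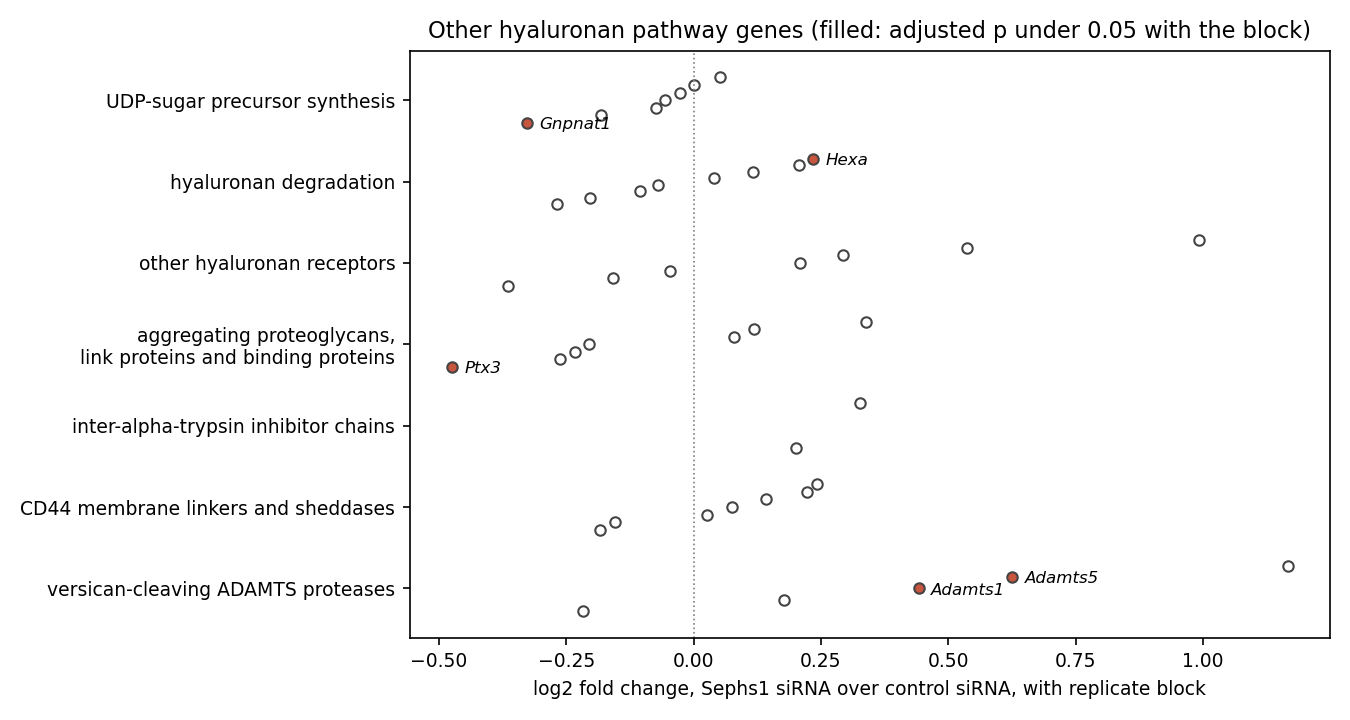
Log2 fold change, Sephs1 siRNA over control siRNA, with the replicate block, for the 43 tested genes of 7 hyaluronan pathway lists, each point 1 gene. Filled points mark the 5 genes with an adjusted p under 0.05, *Hexa*, *Adamts1* and *Adamts5* above 0 and *Gnpnat1* and *Ptx3* below it.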

How the data were processed

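Poly-adenylated RNA libraries were made with a stranded kit and sequenced by the study. One deposited gene table gives raw read counts by gene. Beside them it gives FPKM, which the authors scaled to transcript length and library size. Per the submitters' notes and the study's methods, reads were aligned to mm10 with HISAT2 2.1.0 and quantified with StringTie 1.3.4d. Whether counting used strand is not given in the sources used here.

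Genes with a read in every library entered edgeR 4.0.16 (R 4.3.3) as counts (TMM scaling, quasi-likelihood test, Benjamini-Hochberg adjustment over 14223 genes, 3 libraries in each group, call at an adjusted p under 0.05, with the study's unadjusted 0.05 beside it). CPM are TMM-scaled. Standard errors and intervals were derived from the F statistic of each gene. The fit was tested on simulated data. Their dispersion, the spread between counts, was set below the estimate from these libraries, so the test does not cover that spread. Alternatives were a replicate block, RLE factors, library totals alone, no filter, filterByExpr, DESeq2 1.42.0, limma 3.58.1 on log2 FPKM with a pseudocount of 1 or 0.1, and leaving out each library. Deviations from the group means were alike in libraries that share a replicate number (correlations of 0.518, 0.271 and 0.502 over 14223 genes), so the numbers were taken to pair them. The labels give no further origin of the pairing.

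The 7 genes, the 7 pathway lists, the 5 marker lists and the tests were chosen with earlier results of these data known. All 7 genes were named. Of the pathway lists, genes called at an adjusted p in either fit or at an unadjusted p without the block, and the most abundant of each list, were named, with other hyaluronidases, *Hmmr*, *Hapln1* and *Itih5* added after their values were seen. Some genes that these rules would name are not reported here. The study describes the libraries as biological replicates. Promoters came from RefSeq (GRCm38.p6).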

Additional observations from a re-analysis of the deposited data

How the results depend on the processing

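With the replicate block, 234 genes were called at an adjusted p under 0.05 in place of 2, and 3462 at an unadjusted p in place of 1226. The block raised the pathway genes called from 0 to 5 (adjusted) and from 9 to 20 (unadjusted) and the calls among the 7 genes from 0 to 1 (unadjusted). The block with RLE factors gave 235 and 3495 genes, 4 and 20 pathway genes and 1 of the 7. DESeq2 without the block called 211 genes, with 1 and 5 pathway genes, and with the block 1188 and 2675 genes, 9 and 15 pathway genes and 1 of the 7 at an unadjusted p. At an adjusted p, library totals alone called 0 genes, limma on log2(FPKM + 1) 0 and on log2(FPKM + 0.1) 1.

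Leaving out each library in turn gave 0 to 3 genes at an adjusted p and 725 to 1601 at an unadjusted p, 0 to 1 of the 7 at an unadjusted p (*Vcan* without control replicate 3, *Hapln3* without Sephs1 replicate 1) and 5 to 10 pathway genes. The blocked fit without both libraries of replicate 1, 2 or 3, added after seeing the data, gave 23, 87 and 1195 genes at an adjusted p and 2068, 2246 and 3713 at an unadjusted p. It gave 2, 1 and 1 of the 7 at an unadjusted p. At an adjusted p it called 1 of the 7, *Vcan*, without replicate 3. Pathway calls in that fit were 3 without replicate 2 and 9 without replicate 3 at an adjusted p, and 14 and 21 at an unadjusted p. The cause of these shifts was not tested.

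Of 133 values of the 7 genes under the alternatives, 117 kept their direction and side of the threshold, 1 passed it and 15 changed sign, none of the 15 past the threshold. *Has2* turned to 0.012 with library totals alone, to 0.017 and 0.020 with limma and to 0.039 in the blocked fit without replicate 3, *Has1* to -0.023 in that fit without replicate 1 and *Tnfaip6* to -0.045 without replicate 2. Without single libraries the log2 fold changes ran from -0.603 to 0.799 for *Has1*, -0.146 to 0.053 for *Has2*, -0.029 to 0.348 for *Has3*, -0.011 to 0.177 for *Cd44* and -0.108 to 0.273 for *Tnfaip6*. *Vcan* stayed above 0 and *Hapln3* below 0 under all 19 alternatives, at 0.123 to 1.304 and -0.681 to -0.163. The median of all genes was 0.009 in the main fit and ran from -0.004 to 0.07 under the alternatives. *Has3*, at 14 to 24 reads, and *Adamts15* are limited by depth.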
